A study of Solanum pimpinellifolium and Solanum chilense with 12 samples.

Results

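The response of self-incompatible (SI) styles to their own pollen was measured by RNA sequencing in S. chilense, a wild tomato. Self-pollinated styles (SIP, libraries SIP1 to SIP3) were set against unpollinated styles (SIUP, libraries SIUP1 to SIUP3), and a gene was kept where 3 or more of these 6 libraries reached 1 RPKM. RPKM is the count of reads on a gene scaled to its length in kilobases and to the depth of the library. This left 18334 of the 34718 genes with values. Of the others, 9113 were at 0 in all 6 libraries and 7271 were above 0 but under the filter.

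The SI plants were S. chilense accession LA0130, and styles with their stigmas were collected 24 h after self-pollination or, unpollinated, at the same 24 h. The series also holds styles of self-compatible (SC) S. pimpinellifolium accession LA1585, self-pollinated (SCP) and unpollinated (SCUP), handled in the same way. Each of the 4 groups had 3 libraries, 12 in all. SI and SC are here also different species, so mating system and species cannot be told apart in a difference between their responses.

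In the self-incompatibility of the nightshade family, ribonucleases made in the style enter pollen tubes and stop those that carry a matching S haplotype, while F-box proteins of the pollen disarm the ribonucleases of other haplotypes. The style is also the tissue that pollen tubes grow through, and after pollination styles are known for loosening of cell walls, calcium and kinase signalling, ethylene and auxin synthesis and, later, senescence. A pollinated style holds pollen and pollen tubes as well as its own cells, and reads from both are counted together. In such bulk samples, fewer cells of a type and less RNA per cell cannot be told apart.

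Between 10174283 and 11330121 reads fell on genes in the SIP libraries and between 11650217 and 11933635 in the SIUP libraries. A single read per kilobase corresponded to 0.0883 to 0.0983 RPKM in SIP and to 0.0838 to 0.0858 RPKM in SIUP. On the first principal component, which held 51.9% of the variance, the SIP libraries lay between 30.7 and 40.5, while SIUP1 lay at -11.4, SIUP2 at -55.4 and SIUP3 at -44.4. SIUP1 therefore stood apart from the other unpollinated libraries, on the side of SIP, and counts that rest on it are given with and without it. The study calls the libraries biological replicates, and no source used here says that they came from separate plants, so the spread behind the p-values may be technical.

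Self-pollination of SI styles was followed by 459 rises and 211 falls, called by limma on log2(RPKM + 0.5) at an adjusted p under 0.05. This is 670 genes, or 3.65% of those tested, with 2.50% rising and 1.15% falling. The rises were the larger changes. At least 2-fold were 352 rises and 72 falls, together 2.31% of the genes tested, at least 8-fold were 26 rises and at least 4-fold were 6 falls. Fold changes on this scale understate the change of genes with low values.

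The risen genes had a median level of 34.2 RPKM in SIP and 10.99 RPKM in SIUP. The fallen genes had medians of 18.5 RPKM in SIP and 35.6 RPKM in SIUP, against 15.1 RPKM in SIP and 15.7 RPKM in SIUP over all genes tested. The median log2 fold change was 1.44 over the risen genes, -0.86 over the fallen genes and -0.11 over all genes. In all 670 the SIP and SIUP libraries did not overlap, which was so in 32.0% of all genes tested (SIP higher in 11.2%, SIP lower in 20.8%). Of the risen genes, 70 were under 1 RPKM in all 3 SIUP libraries and entered the test only through SIP, and 6 of the fallen genes were under 1 RPKM in all 3 SIP libraries.

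**Figure D1:**
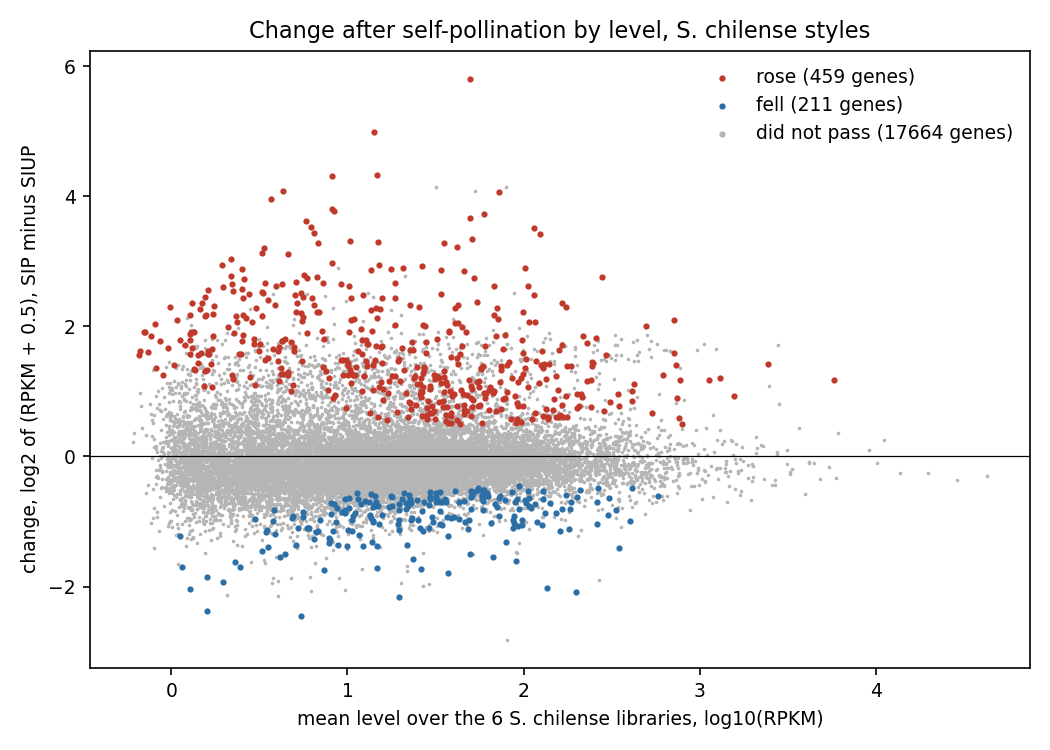
Each point is one of the 18334 genes tested, by its mean RPKM over the 6 S. chilense libraries (log10 scale, horizontal) and its log2 fold change, SIP minus SIUP (vertical). The 459 risen genes (red) reach 5.81 on the log2 scale and the 211 fallen genes (blue) reach -2.46.

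The number of calls moved with single libraries. Without SIUP1, 2299 genes were called (1226 rises and 1073 falls), and without SIUP3 only 120 (118 rises and 2 falls). Without SIP1, SIP2, SIP3 and SIUP2 the calls numbered 111, 360, 289 and 177. An unequal-variance test on RPKM with the same adjustment called 3 genes.

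Called genes lay on every chromosome that the gene IDs name. The share of called genes was lowest on chromosome 11, at 2.46%, and highest on chromosome 5, at 4.53%. Among the 154 tested genes that the IDs place on no chromosome (numbered 0), 10 were called, or 6.49%.

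The largest rise was that of Solyc09g091090, a gene annotated as a flavin monooxygenase of indoleacetic acid synthesis, the route to the main auxin of plants. Its level was 103, 113 and 75.3 RPKM in SIP, against 0.0957, 1.14 and 4.67 RPKM in SIUP, with libraries 1 to 3 in order here and in every gene that follows. All 3 pollinated libraries were high, and the unpollinated libraries ranged from nearly no reads to a low level. The change (log2 fold change 5.81, SE 0.70, adjusted p = 0.012) was no longer called without SIP1 (adjusted p = 0.0579).

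Further annotated oxygenases stood among the largest rises. Solyc11g007890, a 2-oxoglutarate-dependent dioxygenase by its annotation, had 36.4, 32.4 and 16.3 RPKM in SIP and 0.458, 0.68 and 1.71 RPKM in SIUP (log2 fold change 4.33, SE 0.41, adjusted p = 0.00591). Solyc03g080190 is annotated with flavanone 3-dioxygenase activity, a step of flavonoid synthesis, and with responses to fungus and bacterium. It had 92.6, 122 and 62.3 RPKM in SIP, against 8.68, 5.18 and 6.09 RPKM in SIUP (3.67, SE 0.28, adjusted p = 0.00313). In both genes the lowest pollinated library lay far above the highest unpollinated one, and both stayed called whichever library was left out. Solyc04g058170, annotated only with calcium binding, had 108, 74.8 and 97.3 RPKM in SIP and 6.88, 8.44 and 10.9 RPKM in SIUP (3.35, SE 0.20, adjusted p = 0.00172) and stayed called in the same way.

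Of the 15 largest rises among genes with a mean of at least 5 RPKM, 6 carry an annotation in the sources used here. One of these is named by the paper, the ACC oxidase Solyc07g026650, an enzyme of the last step of ethylene synthesis, with 14.1, 14.4 and 6.88 RPKM in SIP and 0.0716, 0.497 and 1.33 RPKM in SIUP. The other 9 genes are given no role here. Among these 9, Solyc01g094780 had 158, 117 and 133 RPKM in SIP, against 4.57, 6.93 and 13.5 RPKM in SIUP (4.06, SE 0.35, adjusted p = 0.00468). Solyc12g011210 had 10.004, 14.1 and 9.35 RPKM in SIP, against 0.437, 0.433 and 0.426 RPKM in SIUP (3.62, SE 0.21, adjusted p = 0.00172). The unpollinated libraries were uneven in Solyc01g094780, with SIUP3 the highest. Solyc12g011210 was under 1 RPKM in all unpollinated libraries and entered the test only through SIP, so its groups could not overlap. Of the 15, 8 remained called without SIP1, 12 without SIUP3, 13 without SIP2, 13 without SIP3, 13 without SIUP2 and 15 without SIUP1.

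**Figure D2:**
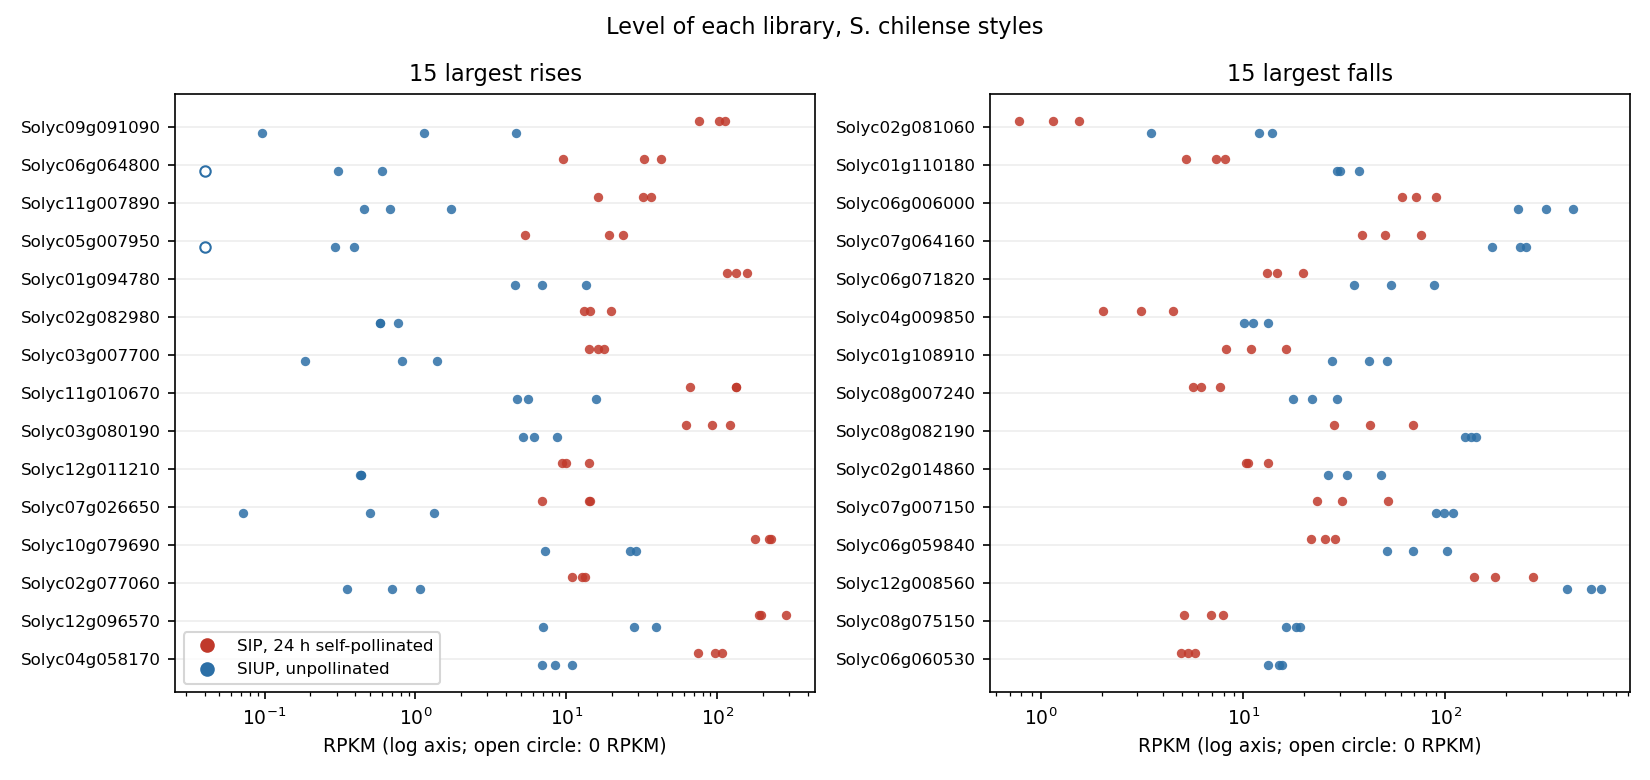
RPKM of each library (log axis) for the 15 largest rises (left panel) and the 15 largest falls (right panel) among called genes with a mean of at least 5 RPKM, with SIP in red above SIUP in blue. The genes were chosen for groups that do not overlap, and their log2 fold changes run from 5.81 in Solyc09g091090 to -2.46 in Solyc02g081060.

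Gene functions came from the Gene Ontology (GO) terms that the study gives for genes it selected itself. The SI annotation, as held here, covers 438 genes and was chosen by the study on these same libraries, so the direction of its lists is not independent evidence. Of its 352 tested genes, 194 rose and 23 fell. With the SC annotation added, 209 of the 459 risen genes and 27 of the 211 fallen genes had a GO term. Counts per list are given as a description, beside 3.65% called and a median log2 fold change of -0.11 among all genes. Of 110 list members called, 34 remained called without SIP1, 65 without SIP2, 65 without SIP3, 110 without SIUP1, 53 without SIUP2, 44 without SIUP3 and 74 in a fit of all 12 libraries, and all 110 kept their direction in each.

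**Figure D3:**
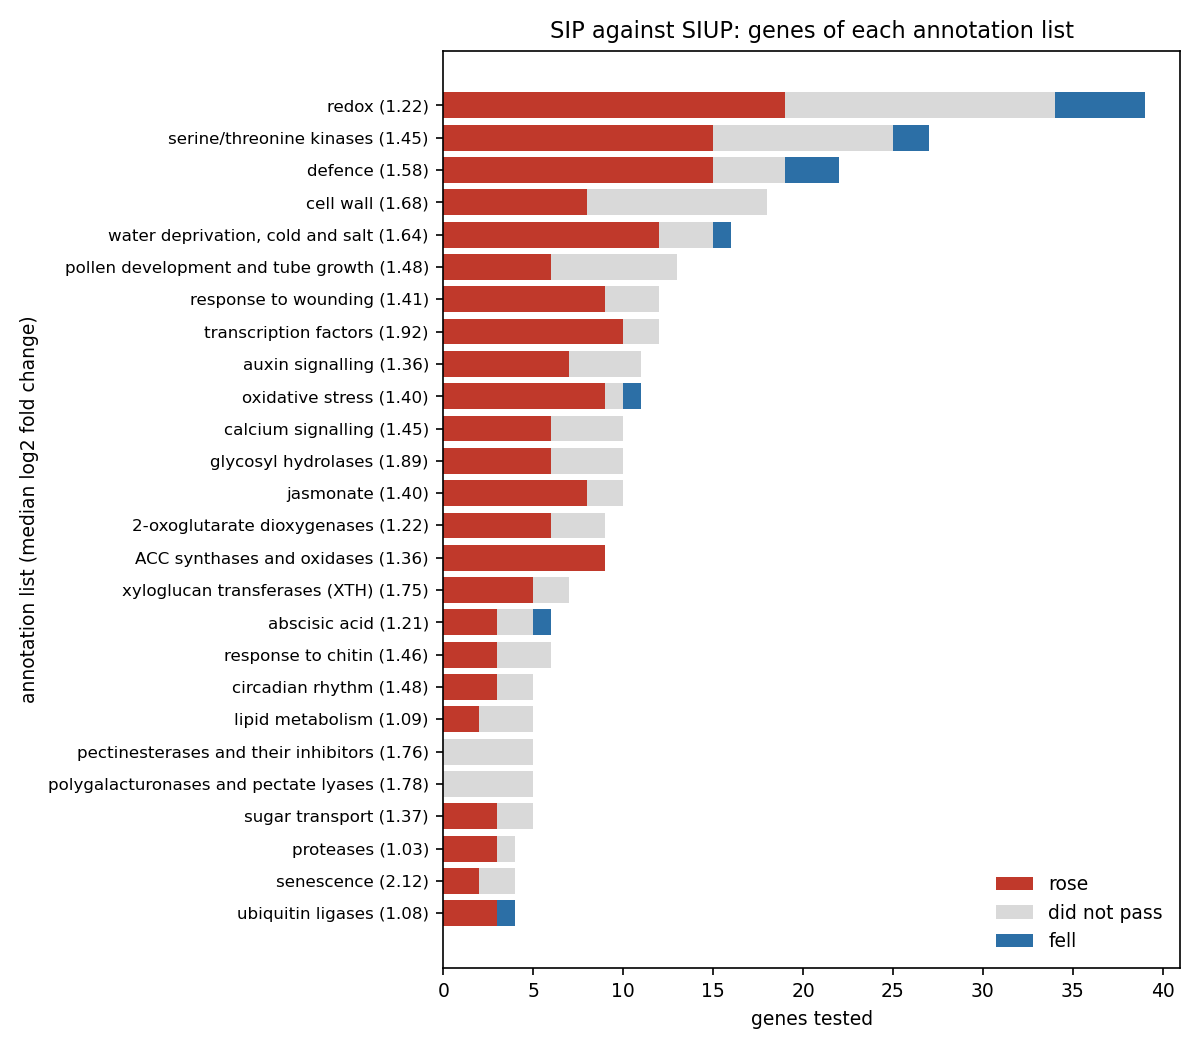
Number of tested genes of each annotation list that rose (red), did not pass the test (grey) or fell (blue) in SIP against SIUP, for lists of the SI annotation with at least 4 tested genes, with the median log2 fold change in brackets. Oxidation and reduction is the longest list, with 19 rises among 39 genes, and the 2 pectin lists hold no called gene at medians of 1.76 and 1.78.

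Among signalling genes, 15 of 27 tested serine/threonine kinases rose and 2 fell (median log2 fold change 1.45), and 2 further members were under the filter. Solyc02g090970, a kinase annotated with responses to salt, cold and water deprivation and with sperm cell differentiation in pollen, had 180.2, 189.98 and 179 RPKM in SIP, against 23.3, 27.9 and 38.3 RPKM in SIUP (2.63, SE 0.18, adjusted p = 0.00209). The pollinated libraries were close to each other and far above all unpollinated ones. Solyc01g103790 had 33.4, 19.8 and 27.5 RPKM in SIP and 3.66, 4.02 and 5.85 RPKM in SIUP (2.44, SE 0.24, adjusted p = 0.00664). These calls did not depend on any single library. Solyc09g011330, a kinase annotated with recognition of pollen, had 7.09, 5.41 and 5.33 RPKM in SIP and 0.629, 0.328 and 0.97 RPKM in SIUP (2.52, SE 0.27, adjusted p = 0.00823), and was not called without SIP1 (adjusted p = 0.0513). It entered the test only through SIP. With SIP1 left out, 6 kinases of the list rose.

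Calcium carries signals in pollen tubes and in the cells they touch. Of 10 tested genes of calcium signalling, 6 rose and none fell, with a median of 1.45. Solyc01g100240, annotated with calmodulin binding, transcription factor activity and the regulation of systemic acquired resistance, had 26.3, 17.4 and 22.6 RPKM in SIP, against 6.34, 4.91 and 4.91 RPKM in SIUP (1.93, SE 0.19, adjusted p = 0.00664). The groups were well apart and the call held without any one library. Without SIP1 or SIUP3, 3 genes of the list rose.

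Of 12 tested genes annotated with transcription factor activity, 10 rose and none fell, with a median of 1.92, and 6 were under the filter. Solyc02g077590, annotated with a response to light, had 103, 82.9 and 87.7 RPKM in SIP and 9.86, 13.4 and 17.1 RPKM in SIUP (2.74, SE 0.20, adjusted p = 0.00285). Solyc05g052050 had 37.95, 38.5 and 37.97 RPKM in SIP and 5.08, 8.75 and 8.17 RPKM in SIUP (2.34, SE 0.20, adjusted p = 0.00468). Its pollinated libraries were nearly equal, and both calls held with any library left out. Solyc02g088180, a DNA-binding gene annotated with leaf senescence and oxidative stress, is not a member of this list. It had 51.02, 50.5 and 39.2 RPKM in SIP and 3.44, 4.67 and 11.02 RPKM in SIUP (2.93, SE 0.38, adjusted p = 0.0142). It was not called without SIP1 (adjusted p = 0.0659) or SIUP2 (adjusted p = 0.0546), and without SIP1 only 3 transcription factors of the list rose.

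Of the ubiquitin ligases, which mark proteins for breakdown, all 4 tested in the SI annotation were called, 3 upward and 1 downward, and 0 of 5 tested in the SC annotation. With 1 library left out, 0 (without SIUP3) to 3 (without SIUP1) of the 4 rose. Solyc10g011740 had 192, 203 and 176 RPKM in SIP and 88.5, 46.4 and 55.8 RPKM in SIUP (1.63, SE 0.23, adjusted p = 0.0193), and was not called without SIP1 (adjusted p = 0.0799), SIP2 (adjusted p = 0.0567), SIP3 (adjusted p = 0.0507) or SIUP3 (adjusted p = 0.0902). Solyc09g083060 had 113, 139 and 93.01 RPKM in SIP and 231, 234 and 273 RPKM in SIUP (-1.11, SE 0.16, adjusted p = 0.0218), and was not called without SIP1 (adjusted p = 0.0903), SIUP2 (adjusted p = 0.0695) or SIUP3 (adjusted p = 0.104). These genes moved in opposite directions, with no overlap of the groups in either.

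Genes annotated with defence rose in 15 of 22 tested cases and fell in 3, with a median of 1.58. Of 12 genes of the response to wounding, 9 rose, and of 6 genes of the response to chitin, a fungal wall polymer, 3 rose, with no falls in either list. Without SIP1, 5 genes of the response to wounding and 0 of the response to chitin rose. All 4 annotated resistance genes were under the filter. Solyc06g068460, annotated as a transcription factor of the responses to chitin, salicylic acid and wounding, had 57.7, 67.5 and 47.2 RPKM in SIP, against 12.3, 5.48 and 13.1 RPKM in SIUP (2.50, SE 0.32, adjusted p = 0.0144), and was not called without SIP1 (adjusted p = 0.0659). Solyc07g042430, a flavin monooxygenase annotated with the hypersensitive response and systemic acquired resistance, had 15.2, 8.36 and 9.3 RPKM in SIP and 0.835, 2.21 and 1.9 RPKM in SIUP (2.43, SE 0.34, adjusted p = 0.0179), and was not called without SIP1 (adjusted p = 0.0663), SIP3 (adjusted p = 0.0503) or SIUP3 (adjusted p = 0.0674). In both the groups were well apart. Without SIP1, 7 defence genes and 5 wounding genes rose.

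Of the 10 tested genes that carry a jasmonate term 8 rose, and of the 11 genes of oxidative stress 9 rose and 1 fell. All 9 tested genes of ACC synthase and ACC oxidase, the enzymes of ethylene synthesis, rose. The ACC synthases Solyc00g095760, Solyc00g095860, Solyc08g008100, Solyc08g081540 and Solyc08g081550 are also members of the jasmonate and wounding lists. Most of the jasmonate and wounding rises are these same genes, so the lists are not separate responses. The jasmonate list also holds the arginine decarboxylase Solyc10g054440, which rose. The lipoxygenase Solyc05g014790, which fell (-1.001, adjusted p = 0.0254), is not a member of it. The list therefore does not give the direction of jasmonate synthesis. With 1 library left out, 4 (without SIP1 or SIUP2) to 9 (without SIUP1) ethylene synthesis genes rose. So did 5 (without SIP1) to 8 genes of the jasmonate list and 5 (without SIP1 or SIUP2) to 10 (without SIUP1) oxidative stress genes. Of the 48 genes that the paper names for hormones, 41 were tested, 26 rose and 1 fell. Solyc09g091510, a member of the jasmonate and oxidative stress lists, is annotated as chalcone synthase, the entry enzyme of flavonoid synthesis. It had 1164, 1005 and 1012 RPKM in SIP, against 437, 379 and 383 RPKM in SIUP (1.41, SE 0.12, adjusted p = 0.00444). The values were close within both groups and its call held with any library left out, although not in a fit of all 12 libraries (adjusted p = 0.0548).

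The cell wall list held 18 tested genes, of which 8 rose and none fell, with 1 rise without SIP1 or SIUP3 and 16 without SIUP1. Xyloglucan endotransglucosylases (XTH), which cut and rejoin the xyloglucan that ties cellulose fibres together, rose in 5 of 7 tested cases, with a median of 1.75. All 7 XTH genes are members of the cell wall list, so these 5 rises are among its 8. The steepest rise was that of Solyc11g040140, annotated with a response to auxin and with cell growth along one axis, at 19.6, 32.5 and 21.2 RPKM in SIP, against 2.38, 2.92 and 3.25 RPKM in SIUP (2.87, SE 0.22, adjusted p = 0.00334). Every pollinated library was far above every unpollinated one, and the call held with any library left out. The most abundant XTH by RPKM, Solyc12g011030, had 381, 376 and 298 RPKM in SIP, against 134, 71.9 and 115 RPKM in SIUP (1.75, SE 0.24, adjusted p = 0.0171), and was not called without SIP1 (adjusted p = 0.0739), SIP2 (adjusted p = 0.0525) or SIUP3 (adjusted p = 0.0665).

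The IDs of Solyc03g093080, Solyc03g093110, Solyc03g093120 and Solyc03g093130 place these 4 XTH genes close together on chromosome 3. The treatment of reads that match several such genes is not stated in any source at hand, so these values are uncertain. Solyc03g093080 had 48.9, 51.6 and 76.5 RPKM in SIP and 26.4, 9.37 and 12.8 RPKM in SIUP (1.94, SE 0.37, adjusted p = 0.0421), a call lost with any library but SIUP1 left out (adjusted p up to 0.165). Solyc03g093120 had 40.5, 48.8 and 63.2 RPKM in SIP and 25.3, 7.7 and 10.8 RPKM in SIUP and did not pass the test (1.91, SE 0.41, adjusted p = 0.0544). In both, SIP3 was the highest pollinated library and SIUP1 the highest unpollinated one. With 1 library left out, between 1 (without SIP1, SIP2 or SIUP3) and 7 (without SIUP1) of the 7 XTH genes rose.

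The enzymes that act on pectin, the gel of the wall that pectinesterases, polygalacturonases and pectate lyases modify and degrade, did not pass the test. In the SI annotation, which the study selected on these libraries, none of 8 tested genes was called, with log2 fold changes of 1.56 to 1.98 and adjusted p of 0.0516 to 0.0888. In the SC annotation 2 more were tested and neither was called, Solyc12g096750 at 1.74 (adjusted p = 0.129) and Solyc12g096740 at -0.23 (adjusted p = 0.655). The most abundant of the 8 by RPKM was Solyc03g058910, a pectate lyase by its annotation, with 1449.9, 2002 and 1211 RPKM in SIP and 1022, 296 and 315 RPKM in SIUP. The pectate lyase Solyc02g087670 had 339, 551 and 315 RPKM in SIP and 225, 75.8 and 84.4 RPKM in SIUP. The pectinesterase Solyc01g066360 had 186, 296 and 167 RPKM in SIP and 112, 36.3 and 42.998 RPKM in SIUP. In all 3 genes SIUP1 was far above SIUP2 and SIUP3 and below every pollinated library.

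The 8 genes of the SI annotation followed one order of libraries. SIUP1 was the highest of the unpollinated libraries in 8 of 8 and SIP2 the highest of the pollinated libraries in 8 of 8, an order seen in 11.2% of all genes tested and in 502 of the 2061 genes (24.4%) with all SIP above all SIUP libraries. Summed over the 8 genes, the level was 2264, 3265 and 1966 RPKM in SIP1, SIP2 and SIP3, against 1538, 466 and 513 RPKM in SIUP1, SIUP2 and SIUP3. Without SIUP1 all 8 rose, at adjusted p between 0.00377 and 0.0107 and a median log2 fold change of 2.27, against 1.75 with it. That fit called 2299 of all 18334 genes tested, 1226 of them upward. Leaving out the highest unpollinated library raises the fold change of these 8 genes by construction, so their calls in that fit are no separate support. Among them Solyc05g052110, a pectinesterase annotated with pollen tube growth, had 25.2, 37.2 and 28.4 RPKM in SIP and 17.7, 5.7 and 8.27 RPKM in SIUP (1.61, SE 0.38, adjusted p = 0.0664).

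**Figure D4:**
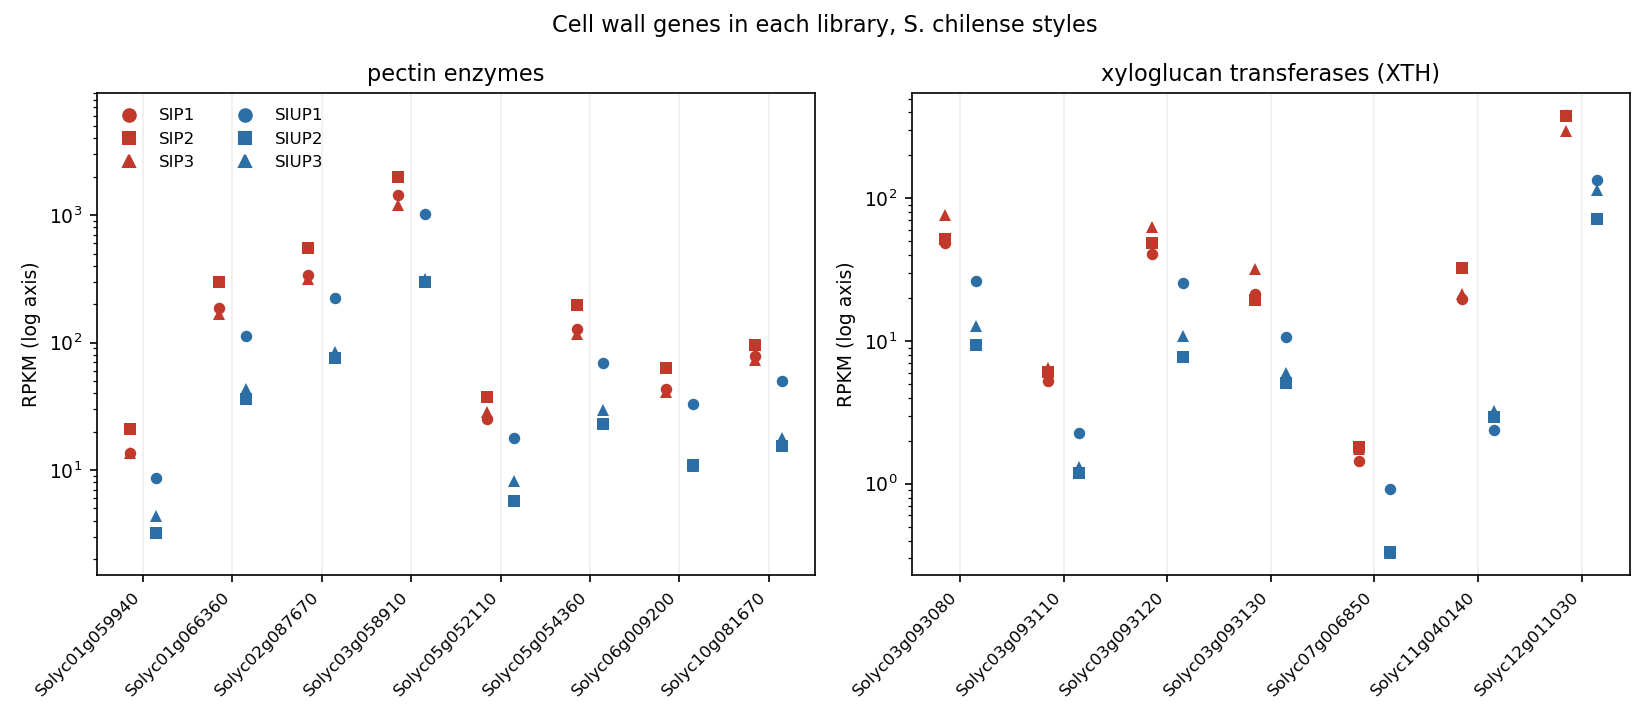
RPKM of each library (log axis) for the 8 tested pectin enzymes (left panel) and the 7 tested XTH genes (right panel) of the SI annotation, with SIP in red to the left of SIUP in blue and a symbol for each library number. SIUP1 (blue circles) is the highest unpollinated library in all 8 pectin genes and in 6 of the 7 XTH genes.

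The wall list also held Solyc03g097840, annotated with transport at the vacuole membrane and with salt stress, with 19.1, 18.9 and 18.3 RPKM in SIP and 3.09, 6.49 and 6.34 RPKM in SIUP (1.79, SE 0.27, adjusted p = 0.0218). It was not called without SIP1 (adjusted p = 0.0924), SIP2 (adjusted p = 0.0605), SIP3 (adjusted p = 0.0633) or SIUP3 (adjusted p = 0.062). Its pollinated libraries were nearly equal and SIUP1 was the lowest unpollinated library.

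The pollen list served as the marker list for pollen, and is made of GO terms of pollen development, germination and tube growth rather than of genes found in pollen alone. Of its 13 tested members in the SI annotation 6 rose and none fell, and the summed level of its 16 members was 401 to 486 RPKM in the SIP libraries and 99.1 to 131 RPKM in the SIUP libraries. A large part of this sum came from 1 member, the kinase Solyc02g090970 named above. It alone averaged 183 RPKM in SIP and 29.8 RPKM in SIUP. Of the list, 2 genes rose without SIP1, SIP2 or SIUP2, 3 without SIP3 or SIUP3, and 11 without SIUP1. Solyc06g066800, annotated with pollen germination and tube growth, had 28.9, 35.4 and 38.003 RPKM in SIP and 19.7, 10.4 and 13.5 RPKM in SIUP (1.24, SE 0.24, adjusted p = 0.041), a call lost with any library but SIUP1 left out (adjusted p up to 0.163). The groups did not overlap, and every tested gene of the list had reads in all 3 unpollinated libraries. Of the 3 members from the SC annotation 1 rose, the GTP-binding gene Solyc08g078070, with 219, 209 and 199 RPKM in SIP and 139, 102 and 124 RPKM in SIUP (0.79, SE 0.13, adjusted p = 0.0318), a call lost with any library but SIUP1 left out (adjusted p up to 0.135). The part of pollen RNA in the rises was not tested, and pistil markers were not checked because the gene descriptions used here matched no ID.

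Oxidation and reduction formed the longest list, with 39 tested members of which 19 rose and 5 fell at a median of 1.22. The 9 tested 2-oxoglutarate-dependent dioxygenases, which include ACC oxidases, rose in 6 cases. Solyc10g005360, a dioxygenase without an ACC oxidase term, had 15.4, 13.5 and 14.02 RPKM in SIP and 7.21, 6.88 and 3.65 RPKM in SIUP (1.26, SE 0.25, adjusted p = 0.0465), a call lost with any library but SIUP1 left out (adjusted p up to 0.146). Of the 2 tested peroxidases 1 fell, Solyc02g080530, with 6.18, 5.23 and 5.38 RPKM in SIP and 11.8, 12.2 and 11.1 RPKM in SIUP (-1.001, SE 0.14, adjusted p = 0.0171). Its libraries were close within each group and the groups were well apart. Without SIP1, 6 genes of the oxidation list and 1 dioxygenase rose.

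Both tested genes of potassium transport annotated as inwardly rectifying channels, which let the ion into cells, rose. Solyc00g005040 had 17.8, 13.7 and 13.04 RPKM in SIP and 2.41, 1.08 and 1.07 RPKM in SIUP (2.98, SE 0.28, adjusted p = 0.00591). Solyc02g070530 had 32.5, 33.6 and 27.7 RPKM in SIP and 5.43, 2.18 and 4.56 RPKM in SIUP (2.88, SE 0.29, adjusted p = 0.00709). In each the lowest pollinated library was well above the highest unpollinated one, and both calls held with any library left out. They share the terms circadian rhythm and stomatal movement, and may share reads.

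Of 5 tested sugar transporters 3 rose, and 1 without SIP1, SIUP2 or SIUP3. Solyc03g097560, the most abundant of them by RPKM, had 220.3, 178 and 163 RPKM in SIP and 59.9, 68.2 and 88.05 RPKM in SIUP (1.38, SE 0.18, adjusted p = 0.0144), and was not called without SIP1 (adjusted p = 0.0579) or SIUP2 (adjusted p = 0.0585). Solyc05g024260 is annotated with sucrose transport and leaf senescence but is not a member of this list of sugar transporters. It had 164, 250.3 and 163 RPKM in SIP and 21.1, 34.8 and 50.5 RPKM in SIUP (2.48, SE 0.32, adjusted p = 0.0147), and was not called without SIP1 (adjusted p = 0.0579) or SIUP2 (adjusted p = 0.0546). Solyc09g090730, annotated with ammonium transport, had 56.7, 80.9 and 68.1 RPKM in SIP and 22.4, 21.99 and 17.5 RPKM in SIUP (1.70, SE 0.17, adjusted p = 0.00642), and this call held with any library left out. No group overlapped another in these 3 genes.

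Genes of water deprivation, cold and salt rose in 12 of 16 tested cases and fell in 1, with a median of 1.64. Of the 4 tested proteases 3 rose, of the 4 genes of senescence 2 rose, of the 5 lipase and esterase genes 2 rose, and of the 6 genes of abscisic acid 3 rose and 1 fell. Without SIP1, 5 genes of water deprivation, cold and salt, 1 of abscisic acid and 0 proteases, senescence genes and lipases rose. Senescence genes and lipases also had 0 rises without SIUP2. Solyc03g111730, annotated as a cysteine protease, had 55.9, 40.7 and 30.1 RPKM in SIP and 6.53, 5.77 and 13.004 RPKM in SIUP (2.30, SE 0.34, adjusted p = 0.0218), and was not called without SIP1 (adjusted p = 0.0818), SIP2 (adjusted p = 0.0602) or SIUP2 (adjusted p = 0.0677). Solyc10g054440, annotated as arginine decarboxylase, an enzyme of polyamine synthesis, had 146, 124 and 112 RPKM in SIP and 72.5, 45.8 and 56.3 RPKM in SIUP (1.14, SE 0.19, adjusted p = 0.0289), a call lost with any library but SIUP1 left out (adjusted p up to 0.126). In both every pollinated library was above every unpollinated one.

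None of the 15 largest falls among genes with a mean of at least 5 RPKM carries an annotation in the sources used here. Solyc02g081060 had 1.14, 1.54 and 0.782 RPKM in SIP and 3.49, 13.8 and 11.9 RPKM in SIUP (-2.46, SE 0.49, adjusted p = 0.0465). Solyc01g110180 had 7.37, 8.09 and 5.23 RPKM in SIP and 30.04, 29.1 and 37.4 RPKM in SIUP (-2.15, SE 0.19, adjusted p = 0.00492). The unpollinated libraries were uneven in Solyc02g081060, with SIUP1 the lowest, and closer together in Solyc01g110180. Solyc06g006000, of higher level, had 71.7, 89.9 and 60.96 RPKM in SIP and 229, 427 and 314 RPKM in SIUP (-2.09, SE 0.25, adjusted p = 0.011).

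Of the 15 falls, 2 remained called without SIUP3, 3 without SIP1, 5 without SIUP2, 7 without SIP3, 11 without SIP2, 15 without SIUP1 and 9 in a fit of all 12 libraries, all still with a fall. Solyc01g110180 and Solyc06g060530 were called whichever library was left out.

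Of the 211 fallen genes 27 had a term, and the following were chosen for their terms after their values were seen. Solyc03g116730, a fatty acid desaturase by its annotation, had 137, 190.5 and 186 RPKM in SIP and 351, 367 and 328 RPKM in SIUP (-1.04, SE 0.15, adjusted p = 0.0202). Solyc08g074480, annotated with lipid transport and cuticle development, had 59.5, 55.2 and 76.1 RPKM in SIP and 140.5, 115 and 142 RPKM in SIUP (-1.06, SE 0.15, adjusted p = 0.0213). Solyc05g014790, a lipoxygenase by its annotation, had 74.8, 76.2 and 86.4 RPKM in SIP and 127, 183 and 171 RPKM in SIUP (-1.001, SE 0.16, adjusted p = 0.0254). Each of these 3 was lower in every pollinated library than in every unpollinated one.

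Solyc05g012510, annotated as a starch phosphorylase of plastids, had 94.7, 105 and 98.3 RPKM in SIP and 172, 263 and 234 RPKM in SIUP (-1.14, SE 0.17, adjusted p = 0.0211). Solyc07g062530, annotated as phosphoenolpyruvate carboxylase, which fixes carbon into organic acids, had 7.73, 7.28 and 5.88 RPKM in SIP and 15.6, 13.6 and 13.2 RPKM in SIUP (-0.98, SE 0.15, adjusted p = 0.027). Solyc02g071260, annotated with red and far-red light reception, had 8.21, 10.02 and 9.31 RPKM in SIP and 16.04, 21.5 and 19.02 RPKM in SIUP (-0.99, SE 0.15, adjusted p = 0.0247). The groups did not overlap in these genes. Solyc01g008960, annotated with binding of small interfering RNA and with DNA methylation, had 53.4, 56.2 and 67.8 RPKM in SIP and 96.4, 147 and 135 RPKM in SIUP (-1.07, SE 0.18, adjusted p = 0.0315). Of the 27 fallen genes with a term, 2 remained called without SIP1, 10 without SIP2, 8 without SIP3, 27 without SIUP1, 2 without SIUP2, 0 without SIUP3 (adjusted p up to 0.197) and 10 in a fit of all 12 libraries, all still with a fall.

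The genes with the highest RPKM did not pass the test. Solyc10g076200 had 35853, 36054 and 42651 RPKM in SIP and 38649.5, 55203 and 47486 RPKM in SIUP (-0.29, SE 0.25, adjusted p = 0.49), with overlapping groups. The log2 fold changes were -0.36 for Solyc12g010070, -0.25 for Solyc10g075110, -0.25 for Solyc04g071610 and 0.25 for Solyc02g078100. Among these only Solyc04g071610 had groups that did not overlap. The 10 most abundant genes held 13.2% to 13.6% of the summed RPKM in SIP and 13.9% to 15.5% in SIUP.

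Runs of 3 neighbouring genes that all rose were found in 3 places. One holds the ACC synthase Solyc08g008100, with 372, 218 and 284 RPKM in SIP and 60.4, 42.9 and 72.5 RPKM in SIUP (2.30, SE 0.25, adjusted p = 0.00886). Next to it Solyc08g008110, without a term, had 29.1, 12.6 and 26.4 RPKM in SIP and 4.39, 2.54 and 6.07 RPKM in SIUP (2.25, SE 0.39, adjusted p = 0.0335), and was not called without SIP1 (adjusted p = 0.117), SIP3 (adjusted p = 0.0934), SIUP2 (adjusted p = 0.0911) or SIUP3 (adjusted p = 0.0782). Solyc08g008120 had 54.4, 48.8 and 47.2 RPKM in SIP and 32.6, 32.9 and 36.1 RPKM in SIUP (0.56, SE 0.11, adjusted p = 0.0428), a call lost with any library but SIUP1 left out (adjusted p up to 0.152). In Solyc08g008100 and Solyc08g008110, SIP2 was the lowest pollinated library and SIUP2 the lowest unpollinated one. The others were Solyc01g107390, Solyc01g107400 and Solyc01g107410, with log2 fold changes of 1.58, 1.27 and 0.99, and Solyc03g019970, Solyc03g019990 and Solyc03g020000, which entered the test only through SIP, with 2.08, 1.61 and 1.79. None of these 6 has a term, and none was called in every fit with 1 library left out.

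Whether the SI response differed from the SC response was tested as (SIP - SIUP) - (SCP - SCUP) over the 12 libraries and the same 18334 genes. It differed in 94 genes, or 0.513%, of which 26 (0.142%) were higher in SI and 68 (0.371%) lower in SI. Over the 26 genes the median change was 1.83 in SI and -0.31 in SC on the log2 scale, and 20 of them rose in SI. Over the 68 genes it was -0.06 in SI and 1.94 in SC, and 59 of them rose in SC while 1 rose and 3 fell in SI. The count of 94 ranged from 7 without SIUP3 to 278 without SCP1.

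In 24 genes both the SI change and the difference from SC were called. The difference was largest in the XTH gene Solyc11g040140, with log2 fold changes of 2.87 in SI and -1.20 in SC (difference 4.06, adjusted p = 0.0114). Its fall in SC was not itself called (adjusted p = 0.142). Its levels there were 2.28, 1.88 and 4.02 RPKM in SCP and 11.5, 4.30 and 5.73 RPKM in SCUP, with SCUP1 far above the others. Solyc07g065110, without a term, had 22.8, 12.6 and 22.2 RPKM in SIP and 1.63, 1.62 and 1.06 RPKM in SIUP, a change of 3.31 in SI and -0.30 in SC (difference 3.61, adjusted p = 0.0114). The groups in SI were far apart in both. The potassium channel gene Solyc00g005040 changed by 2.98 in SI and 0.56 in SC (difference 2.42, adjusted p = 0.0275), and the calcium-binding gene Solyc04g058170 by 3.35 in SI and 1.03 in SC (difference 2.32, adjusted p = 0.0301). In SC, Solyc00g005040 averaged 0.319 RPKM in SCP and 0.0586 RPKM in SCUP. Solyc07g065110 averaged 0.159 RPKM in SCP and 0.304 RPKM in SCUP. At such levels the 0.5 added to RPKM keeps any SC change small, so these differences do not settle whether the responses differ.

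The kinase Solyc02g064980 had 37.9, 43.8 and 48.3 RPKM in SIP and 8.9, 10.002 and 12.3 RPKM in SIUP, a change of 2.01 in SI and 0.04 in SC (difference 1.97, adjusted p = 0.0275). Solyc06g051920, annotated as an ion channel gated by cyclic nucleotides, had 22.5, 23.8 and 14.99 RPKM in SIP and 5.31, 5.99 and 5.86 RPKM in SIUP, a change of 1.72 in SI and -0.24 in SC (difference 1.96, adjusted p = 0.0275), and its SI change was not called without SIP1 (adjusted p = 0.0551). In both the SIP and SIUP libraries were well apart. Of the 24 differences, 3 remained called without SIP1, 8 without SIP2, 8 without SIP3, 19 without SIUP1, 3 without SIUP2 and 3 without SIUP3. Of the same 24, 24, 5 and 6 remained called without SCP1, SCP2 and SCP3, and 6, 21 and 3 without SCUP1, SCUP2 and SCUP3, and all 24 kept their sign in these fits.

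**Figure D5:**
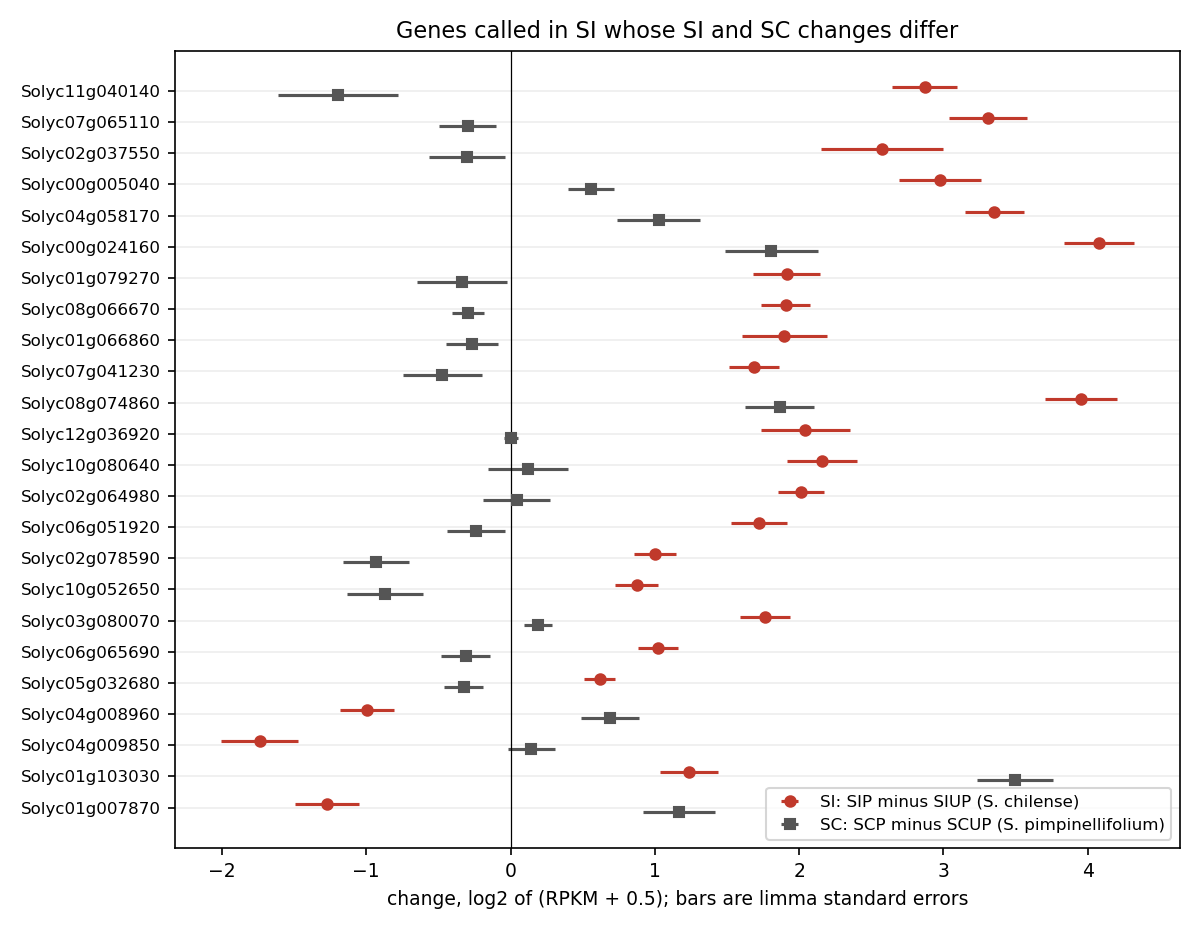
Log2 fold change in SI (red circles, SIP minus SIUP) above that in SC (grey squares, SCP minus SCUP) for the 24 genes called in SI whose SI and SC changes differ, with bars for the limma standard error. In 20 of them the SI change is positive and above the SC change, widest in Solyc11g040140 at 2.87 against -1.20.

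Some annotated genes that rose in SC did not pass the test in SI, and 3 were chosen to be named after their values were seen. Solyc10g055800, a chitinase by its annotation, averaged 1.81 ± 0.454 RPKM in SIP and 0.857 ± 0.478 RPKM in SIUP, and 199.9 ± 35.9 RPKM in SCP and 11.8 ± 7.34 RPKM in SCUP (SD, n = 3 each). It changed by 0.81 in SI and 4.22 in SC (difference -3.42, adjusted p = 0.0427). A smaller share of read pairs mapped in SI than in SC, so the levels of the species may not compare directly. Solyc12g096740, a polygalacturonase by its annotation, changed by -0.23 in SI and 3.13 in SC (difference -3.36, adjusted p = 0.037). It averaged 0.84 RPKM in SIP and 1.12 RPKM in SIUP, against 141 RPKM in SCP and 17.0 RPKM in SCUP. Solyc10g055800 and Solyc12g096740 were thus near the filter in SI, where the 0.5 added to RPKM lessens any change. The kinase Solyc07g063730, annotated with recognition of pollen, changed by -0.64 in SI and 1.82 in SC (difference -2.46, adjusted p = 0.0275).

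The SC annotation, which the study selected on SC libraries, gives a second view of function. Of its 422 genes not in the SI annotation, 315 were tested, and 15 rose and 4 fell in SI, which is 6.03% called against 3.65% of all genes, with a median log2 fold change of 0.02 against -0.11. By list, 1 of 13 wall genes, 1 of 14 defence genes, 0 of 20 kinases, 4 of 40 oxidation genes, 1 of 10 transcription factors, 1 of 13 calcium genes, 1 of 13 abscisic acid genes and 1 of 18 proteases rose in SI. Of the 16 genes of water deprivation, cold and salt 2 rose and 1 fell. None was called of the 6 genes of oxidative stress, 5 ubiquitin ligases, 5 lipases and esterases, 4 dioxygenases and 4 glycosyl hydrolases of the wall. The remaining lists of the SC annotation held at most 3 tested genes each. The wall gene that rose was Solyc01g111970, annotated as an ascorbate oxidase, which entered the test only through SIP, with 4.86, 2.12 and 3.99 RPKM in SIP and 0.727, 0.18 and 0.71 RPKM in SIUP (1.99, SE 0.37, adjusted p = 0.04). It was not called without SIP1 (adjusted p = 0.133), SIP3 (adjusted p = 0.109), SIUP2 (adjusted p = 0.106) or SIUP3 (adjusted p = 0.126). Of the oxidation genes 1 fell, Solyc10g078920, annotated with protein disulfide exchange in the chloroplast stroma, with 7.88, 8.65 and 7.19 RPKM in SIP and 16.8, 24.6 and 23.003 RPKM in SIUP (-1.37, SE 0.17, adjusted p = 0.0137). Medians of the lists with at least 10 tested genes ran from -0.30 for calcium to 0.51 for transcription factors.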

How the data were processed

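RNA from styles with stigmas was sequenced in 12 libraries, 3 for each of SIP, SIUP, SCP and SCUP. The deposited values are RPKM per gene, which the authors made by trimming reads with Trimmomatic 0.32, aligning them with TopHat2 to the tomato reference of the Sol Genomics Network and counting reads on genes with HTSeq. The genome build is not given in the sources used here. Both species were measured over one set of tomato gene IDs. The paper reports a smaller share of read pairs mapped to this reference in the SI libraries than in the SC libraries. Levels in SI and SC may therefore not compare directly, and low or absent values in SI may be affected. This was not tested. The authors tested expression with DESeq, and the fold changes and p-values that they deposited were not used. Of 34725 listed genes 7 held error codes in place of values and were left out.

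The RPKM values were taken as log2(RPKM + 0.5), and genes with 1 RPKM or more in 3 of the 6 SI libraries were tested with limma 3.58.1 (R 4.3.3, with a mean-variance trend), SIP against SIUP, with Benjamini-Hochberg adjustment at 0.05. Every adjusted p in the text is from limma unless another test is named. The difference between SI and SC was an interaction term over 12 libraries. Steps of the RPKM values returned whole reads for the depth (tolerance 0.0001). On simulated data for SIP against SIUP, over 18334 genes and 3 runs, 77% to 85% of 4-fold and 30% to 46% of 2-fold changes were called, with 5 to 10 calls among unchanged genes. The simulated spread was drawn independently for each gene and library, and only genes above a minimum of reads were changed. It holds no shift shared by a whole library, as seen in SIUP1, so these rates may not hold for the real libraries.

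The members and gene lists were chosen with earlier results of these data known. Named genes were the 15 largest rises and 15 largest falls with a mean of at least 5 RPKM and no overlap, up to 4 called members of largest change in each list with at least 2 called, the 5 most abundant genes in each group, runs of 3 or more neighbours, those also called against SC, and the pollen list. Other genes in the text, such as the pectin enzymes, were named after their values were seen. Lists that rest on gene descriptions were not used here, as 0 IDs matched the gene table at hand. Alternatives were other scalings, pseudocounts (0.1 and 1), filters (none and 5 RPKM), a replicate block, a fit of 12 libraries, no trend, voom on recovered reads, an unequal-variance test and leaving out each library.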

Additional observations from a re-analysis of the deposited data

Results flagged for a closer look

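The following 24 genes were called in SIP against SIUP, and their change in SI differed from that in SC by the test of the difference itself, given on the log2 scale as SI minus SC. Mating system and species cannot be told apart in these differences. The filter used the SI libraries only. Solyc00g005040, Solyc02g037550, Solyc03g080070, Solyc07g065110, Solyc08g066670 and Solyc12g036920 were under 1 RPKM in every SC library, where the added 0.5 keeps any change small. Among genes with a role in the annotation, the difference was 4.06 for the XTH gene Solyc11g040140, 2.42 for the potassium channel gene Solyc00g005040, 2.32 for the calcium-binding gene Solyc04g058170 and 1.97 for the kinase Solyc02g064980. It was 1.96 for the ion channel gene Solyc06g051920, 1.94 for Solyc02g078590, annotated as a galactosyltransferase, and 1.33 for Solyc06g065690, annotated as a regulator of a protein phosphatase. For Solyc01g103030, annotated as a transporter, it was -2.26, as the gene rose by 1.23 in SI and more in SC.

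Genes higher in SI to which no role is given here were Solyc07g065110 at 3.61, Solyc02g037550 at 2.88, Solyc00g024160 at 2.27, Solyc01g079270 at 2.25, Solyc08g066670 at 2.20, Solyc01g066860 at 2.16 and Solyc07g041230 at 2.16. Smaller differences were those of Solyc10g080640 at 2.04, Solyc10g052650 at 1.75, Solyc03g080070 at 1.57 and Solyc05g032680 at 0.94. Of the 24 genes, 4 were under 1 RPKM in all SIUP libraries and entered the test only through SIP, Solyc00g024160, Solyc02g037550, Solyc08g074860 and Solyc12g036920. Solyc08g074860, annotated with translation initiation among other terms (2.09), and Solyc12g036920, without a term (2.04), were at 0 in all 3 SIUP libraries, so their fitted values depend on the pseudocount. Solyc12g036920 had 1.31, 2.35 and 1.2 RPKM in SIP and was at 0 in all SC libraries as well. The number of reads behind its values is uncertain, so no bound on its fold is given. Against a floor of 3 reads per library (0.738 RPKM), Solyc08g074860 was at least 10.02-fold higher in SIP.

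The fallen genes were Solyc01g007870 at -2.44, Solyc04g009850 at -1.88 and Solyc04g008960 at -1.69, each lower in SI than in SC and none with a term. Of the 24 differences, 9 remained called with voom on recovered reads.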

How the results depend on the processing

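The 670 calls fell to 126 with a replicate block (101 rises, 25 falls) and to 3 with the unequal-variance test on RPKM (1 rise, 2 falls, with 2957 genes at an unadjusted p under 0.05), and ranged from 111 to 2299 with 1 library left out (rises 102 to 1226, falls 2 to 1073). The 211 falls became 126 with no filter, 135 in the fit of all 12 libraries and 127 without the trend. The 110 called list members became 38 with the replicate block, 0 with the unequal-variance test and 34 to 153 with 1 library left out, and the 115 called named genes became 42, 0 and 36 to 120. The 94 differences between SI and SC became 56 with the replicate block, 30 with voom on recovered reads and 7 to 278 with 1 library left out. The share of rises moved with scaling, with 505 rises and 158 falls after upper-quartile scaling and 486 rises and 194 falls after quantile normalization. Solyc10g075110, which was not called, reversed to 0.086 under quantile normalization. Over the single genes, 1631 values kept their direction and side of the threshold, 548 were no longer called, 10 became called and 1 reversed. The cause of these changes was not tested. Same-numbered SIP and SIUP libraries had deviations correlated at 0.16, -0.21 and 0.06, so the numbers were not taken to pair them. The depth limits the genes under the filter, for which no change could be tested.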
